A study of Homo sapiens with 12 samples.

Results

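The response to 1,2-dihydroxynaphthalene (1,2-DHN) in cells given asparagine was measured in SRA01/04 cells, an immortalised human lens epithelial line. It was taken from 6 of the series' 12 RNA-seq libraries, and 17889 genes were tested of 60641 gene symbols counted. The members were all genes in 3 libraries from cells given 1,2-DHN with asparagine (DHN-A) set against 3 libraries from cells given asparagine alone (NC-A). The series also holds 3 libraries from cells given 1,2-DHN alone (DHN) and 3 from untreated cells (NC), and all cells were collected after 24 hours. The doses, the order of addition, and whether the replicates were separate cultures were not given in the labels, so p-values reflect the variation among these libraries alone, which may be technical. The series is built on a single cell line, and every group shares that background. DHN-A against NC-A asks what 1,2-DHN still does when asparagine is present, and DHN against NC is the same contrast without added asparagine.

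1,2-DHN is a product of naphthalene metabolism that oxidises readily to a reactive quinone, and naphthalene feeding is a classical way to cause cataract in animals. Quinones modify protein thiols, and cells are known to answer with chaperones under the transcription factor HSF1, with detoxifying enzymes under NRF2, and, where aromatic compounds bind it, with targets of the aryl hydrocarbon receptor. Hypoxia-inducible factor (HIF) drives glucose uptake and glycolysis genes when its prolyl hydroxylases are inactive, and ATF4 drives genes of amino acid supply, including the asparagine synthetase ASNS.

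Promoters of genes that lead the remaining response are shown first, 250 bases up to the start of the gene in RefSeq (GRCh38.p14, 5′ to 3′ on the gene's strand). In the 4 genes that fell, capitals mark the hypoxia response element core, searched as ACGTG or GCGTG on both strands, so that a palindromic CACGTG counts as a match on each strand. In the 2 chaperone genes, which rose, capitals mark the heat shock element, searched as GAANNTTC or TTCNNGAA on both strands. BNIP3, at chr10:131981924-131982173 on the minus strand, held 6 matches. LDHA, at chr11:18394313-18394562 on the plus strand, held 5. HK2, at chr2:74833877-74834126, and PPFIA4, at chr1:203026241-203026490, both on the plus strand, held 3 each. HSPA6, at chr1:161524290-161524539 on the plus strand, held 3 matches, and HSPA1A, at chr6:31815293-31815542 on the plus strand, held 1.
BNIP3: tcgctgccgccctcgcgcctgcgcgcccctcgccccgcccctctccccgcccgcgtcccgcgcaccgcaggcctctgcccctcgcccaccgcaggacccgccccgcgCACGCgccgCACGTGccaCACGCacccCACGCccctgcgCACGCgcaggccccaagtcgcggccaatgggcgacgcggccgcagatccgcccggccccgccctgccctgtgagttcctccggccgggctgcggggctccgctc
LDHA: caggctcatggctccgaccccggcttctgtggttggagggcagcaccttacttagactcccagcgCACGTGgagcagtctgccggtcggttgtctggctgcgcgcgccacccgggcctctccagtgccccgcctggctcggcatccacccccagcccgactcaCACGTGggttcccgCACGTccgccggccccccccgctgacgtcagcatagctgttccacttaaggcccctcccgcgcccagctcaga
HK2: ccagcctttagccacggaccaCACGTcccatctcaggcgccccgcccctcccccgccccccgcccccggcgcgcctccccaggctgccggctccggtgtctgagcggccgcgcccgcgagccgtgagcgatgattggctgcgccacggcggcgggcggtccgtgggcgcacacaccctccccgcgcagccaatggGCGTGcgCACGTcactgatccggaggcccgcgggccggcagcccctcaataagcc
PPFIA4: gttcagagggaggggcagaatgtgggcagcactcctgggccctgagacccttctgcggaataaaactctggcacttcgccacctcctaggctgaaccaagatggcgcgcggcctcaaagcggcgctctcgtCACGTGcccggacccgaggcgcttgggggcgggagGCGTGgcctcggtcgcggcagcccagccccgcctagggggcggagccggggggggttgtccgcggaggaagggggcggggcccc
HSPA6: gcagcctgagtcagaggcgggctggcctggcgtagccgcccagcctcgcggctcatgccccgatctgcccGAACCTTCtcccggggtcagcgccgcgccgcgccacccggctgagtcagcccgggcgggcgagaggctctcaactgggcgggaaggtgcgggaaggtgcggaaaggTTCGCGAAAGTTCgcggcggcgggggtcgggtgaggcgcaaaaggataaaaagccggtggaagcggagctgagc
HSPA1A: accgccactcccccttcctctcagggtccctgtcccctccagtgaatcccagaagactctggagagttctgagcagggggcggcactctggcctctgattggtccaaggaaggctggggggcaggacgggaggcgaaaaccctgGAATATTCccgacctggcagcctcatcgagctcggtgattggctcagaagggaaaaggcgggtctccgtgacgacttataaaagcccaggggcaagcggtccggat

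Such short matches are common. Promoters were searched over the 300 bases from 250 before to 50 after the gene start. The hypoxia core was found in 14 of the 17 promoters available for hypoxia and glycolysis genes called lower (82.4%). It was in 61.9% of 11429 promoters of tested genes and 48.4% of all 27305 promoters in the table. The list was chosen with earlier results of these data known, and the core was added after the data were examined. The 82.4% is therefore a description and not a test. Beyond that list, genes called in the same direction with and without asparagine were searched. The first set had no call of a difference between the changes, which does not show that they were equal. In that set the core was in 18 of 35 promoters of genes called higher (51.4%). Among those called lower the core was in 18 of 29 (62.1%), near the share of tested genes. For all genes called in the same direction in both contrasts, it was in 55.9% of those higher and 69.2% of those lower. In the first set, the heat shock element was found in 3 of 35 promoters of genes called higher (8.57%) and 3 of 29 called lower (10.3%). Its share was 10.2% of promoters of tested genes and 13.7% of all promoters. For the antioxidant response element core (TGACNNNGC, both strands), which NRF2 binds, the shares in the same order were 17.1%, 20.7%, 15% and 13.6%. The C/EBP-ATF response element (TGATGNAAT, both strands), bound by ATF4, was in 0 of 35 and 1 of 29, against 0.472% of promoters of tested genes and 1.02% of all promoters. A match is a string of letters, not a shown binding site.

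Total counts were 27526206, 25868418 and 23816595 in the DHN-A libraries and 13529028, 13785921 and 17478970 in the NC-A libraries, so depth moved with the group. With all libraries thinned to the smallest total of the series, 12381071, 337 genes were called in place of 375. NC-A 1 stood apart from the other libraries: the first principal component of the 6 libraries, 52.7% of their variance, placed it at 68.3 and the other 5 between -19.7 and 1.23. Counts of calls are therefore also given without it. Of 28 lens markers, 21 had too few counts to be tested, and CRYGA, CRYGB, CRYGC and CRYGD, which encode gamma crystallins, had 0 counts in all 12 libraries. The lens markers tested summed to 39.2 to 41.9 CPM in DHN-A libraries and 33.4 to 35.8 CPM in NC-A libraries (CPM, counts scaled by library size). That sum includes CRYAB, which was called higher (log2 change 1.81) and is described below with the chaperones. The other 6 tested lens markers were not called. Markers of other cell types were not all lower. The tested fibroblast markers (8 of 10) summed to 1199 to 1268 CPM in DHN-A libraries and 1217 to 1222 CPM in NC-A libraries, well above the lens markers. The tested keratinocyte markers (3 of 10) summed to 41.6 to 47.9 CPM in DHN-A libraries and 43.02 to 47.1 CPM in NC-A libraries. Pigment cell markers (5 of 10) summed to 11.2 to 12.3 CPM in DHN-A libraries and 10.8 to 11.6 CPM in NC-A libraries, and immune markers (2 of 10) to 0.899 to 1.24 CPM in DHN-A libraries and 0.517 to 1.09 CPM in NC-A libraries.

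With asparagine present, few genes were called changed by 1,2-DHN, and most of the called changes were small. The genes that fell were led by hypoxia-regulated and glycolytic genes, and the largest rises were in stress-inducible chaperone genes and ARC, an immediate early gene of synaptic plasticity. At an adjusted p under 0.05 (edgeR quasi-likelihood test, Benjamini-Hochberg over the 17889 genes), 375 genes (2.1% of those tested) were called, 144 higher (0.805%) and 231 lower (1.29%). Of these, 10 changed at least 2-fold, 5 in each direction, and the median change of a called gene was 1.16-fold. At an unadjusted p under 0.05 in the same edgeR test there were 2338 of the 17889 genes. A gene that was not called may therefore still have changed. Removing a trend of the counts with GC content gave 90 higher and 284 lower calls, and testing without a filter on low counts gave 271 higher and 127 lower, so the balance of directions depended on both choices (38.4% higher as tested, 24.1% after GC removal, 68.1% without the filter). The count also rested on single libraries: it was 143 without DHN-A 2, 170 without NC-A 3, 226 without NC-A 2, 230 without DHN-A 1 and 288 without NC-A 1 (103 higher, 185 lower). The 3 DHN-A values did not overlap the 3 NC-A values in 3298 genes (18.4% of those tested). Fewer cells of a kind and less RNA per cell cannot be told apart in such bulk libraries.

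Without added asparagine, 6919 genes were called (38.7%), 3520 higher (19.7%) and 3399 lower (19%), and 635 changed at least 2-fold. The 2 contrasts share no library. The difference between them, the interaction (change from DHN-A minus NC-A less the change from DHN minus NC), was called for 4592 genes (25.7%). Over the 6919 genes called in DHN against NC, the median ratio of the log2 change with asparagine to that without was 0.0713, and 60.3% had the same sign. Over all 17889 genes, 55.3% had the same sign, and the correlation of the 2 log2 changes was r = 0.17 across genes, which are not independent replicates.

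**Figure D1:**
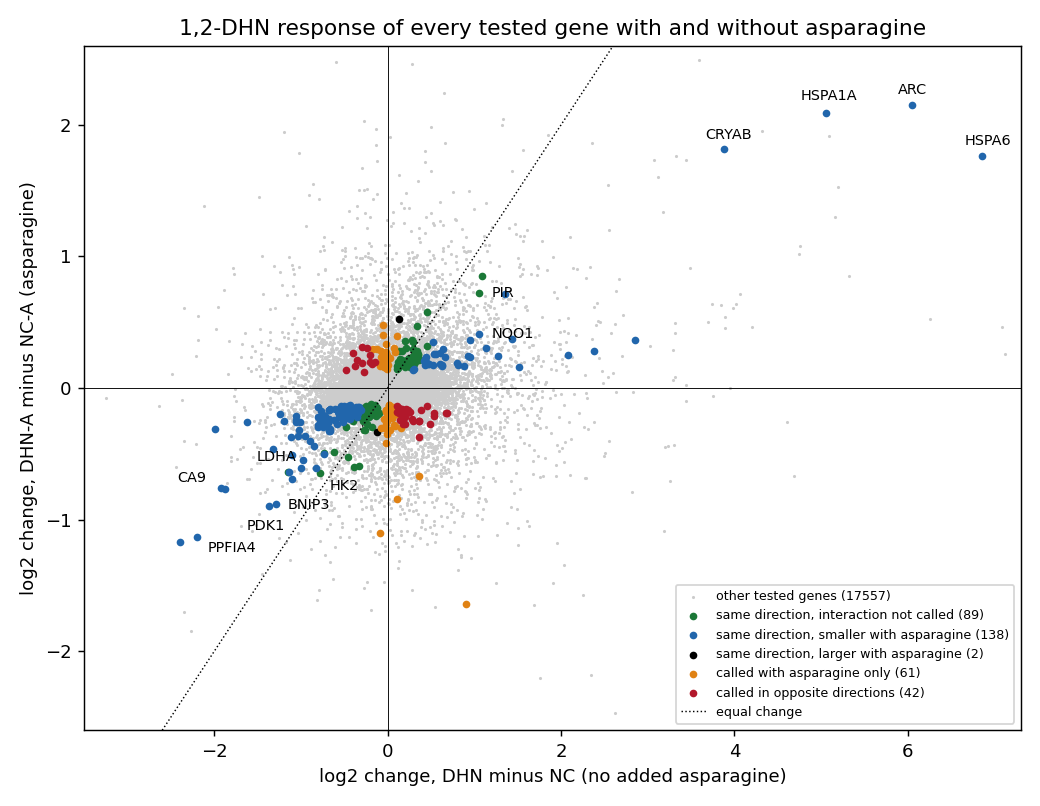
Log2 change in DHN-A minus NC-A (vertical axis) against log2 change in DHN minus NC (horizontal axis) for each tested gene, with a dotted line marking equal change. Genes called in DHN-A against NC-A are coloured by how the 2 changes compare. The 43 called with asparagine alone with no call of the interaction are grey, as are genes not called. Most genes that moved without added asparagine lie near 0 on the vertical axis, and HSPA6, ARC, HSPA1A and CRYAB at the right and BNIP3, PDK1, CA9 and PPFIA4 at the left remain away from it; 6 tested genes lie outside the plotted range.

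Of the 375 genes, 229 (61.1%) were called in the same direction in DHN against NC, 83 higher and 146 lower. These are 3.31% of the genes called without added asparagine. In 138 of the 229 (38 higher, 100 lower) the interaction was called and the change was smaller with asparagine, with a median size of 0.22 on the log2 scale in DHN-A against NC-A and 0.63 in DHN against NC. In 89 (44 higher, 45 lower) the interaction was not called, which does not show that the changes were equal, with median sizes of 0.21 and 0.26. In 2 genes the change was larger with asparagine. Another 61 genes (26 higher, 35 lower) were called with asparagine and not without, with the interaction called, and 42 (12 higher with asparagine, 30 lower) were called in opposite directions. The remaining 43 were called with asparagine alone with no call of the interaction. For 4105 genes called in DHN against NC, the response was not called with asparagine and the interaction was. Without NC-A 1, 98 genes had a smaller change, 71 had no call of the interaction, 2 had a larger change, 45 were called with asparagine and not without, 42 were opposite and 3944 were not called with asparagine.

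**Figure D2:**
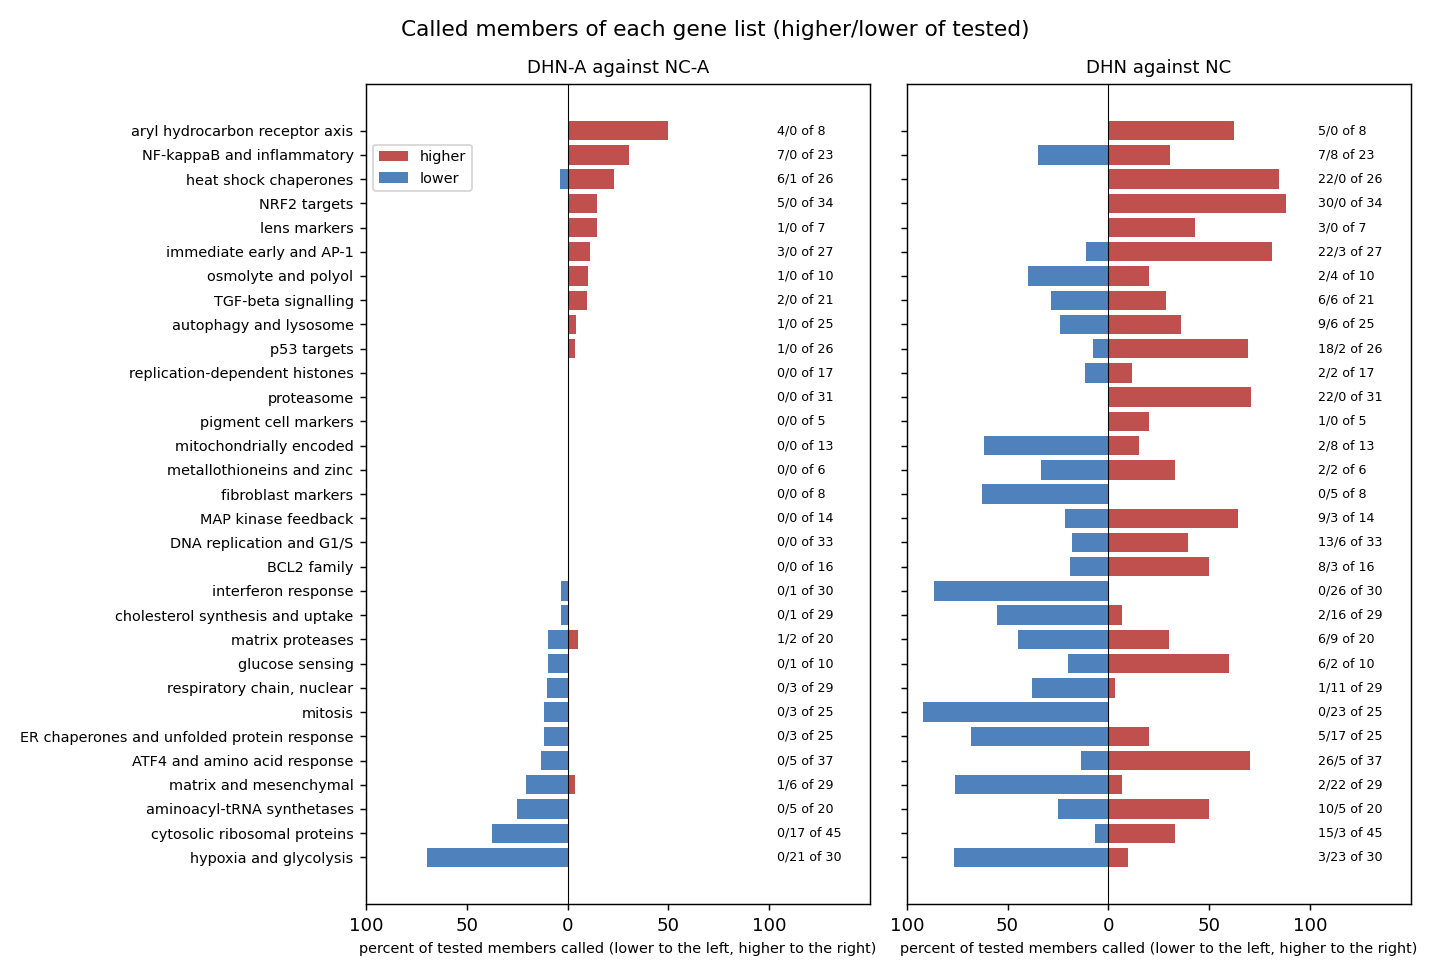
Percent of the tested members of each gene list that were called higher (to the right) or lower (to the left) in DHN-A against NC-A (left panel) and in DHN against NC (right panel), with the counts written beside the bars, for lists with at least 5 tested members. Hypoxia and glycolysis genes have 21 of 30 members called lower with asparagine and 23 of 30 without, and heat shock chaperones have 6 of 26 called higher with asparagine and 22 of 26 without. Over all tested genes, 0.805% were called higher and 1.29% lower with asparagine, and 19.7% and 19% without.

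Hypoxia-regulated and glycolysis genes fell together with asparagine present. Of 30 members tested, 21 were called lower, against 1.29% of all tested genes. The median log2 change of the 30 was -0.31, against 0.00 over all tested genes. Their summed level was 9641, 9628 and 9538 CPM in the DHN-A libraries, against 11583, 11676 and 11360 CPM in the NC-A libraries. No DHN-A library reached an NC-A library. Without NC-A 1, 19 of the 30 were called lower, and with GC content removed 23 were. Without added asparagine, 23 were called lower and 3 higher.

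BNIP3, a mitophagy receptor induced in hypoxia, had 113, 114 and 112 CPM in DHN-A libraries and 215, 206 and 203 CPM in NC-A libraries. Its log2 change was -0.88 ± 0.04 (SE, n = 3 each; edgeR adjusted p = 2.41e-21). PDK1, the kinase that holds back pyruvate entry into mitochondria, had 11.8, 13.03 and 11.5 CPM in DHN-A libraries and 22.2, 23.3 and 22.1 CPM in NC-A libraries, a log2 change of -0.90 ± 0.09. Each of these groups was tight, and the lower group stayed well clear of the upper one. LDHA, which makes lactate, had 457, 437 and 464 CPM in DHN-A libraries and 711, 711 and 686 CPM in NC-A libraries, a log2 change of -0.63 ± 0.04 (edgeR adjusted p = 3.87e-18). HK2, the hexokinase that starts glycolysis, had 80.3, 77.7 and 82.2 CPM in DHN-A libraries and 127, 122 and 127 CPM in NC-A libraries, a log2 change of -0.65 ± 0.04. Neither gene's groups overlapped. PGK1, a glycolytic kinase, fell by 0.50 on the log2 scale, and P4HA1, a collagen prolyl hydroxylase subunit, fell by 0.61. CA9, a carbonic anhydrase at the cell surface, had 3.49, 4.78 and 3.51 CPM in DHN-A libraries and 6.80, 6.83 and 6.49 CPM in NC-A libraries, a log2 change of -0.77 ± 0.15. By annotation, 38.5% of its exon bases lie opposite exons of ARHGEF39, and whether counting used strand was not given.

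The same genes differed in how their change compared with that in cells without added asparagine. HK2 was at 77.9, 71.9 and 70.9 CPM in DHN libraries and 127, 124 and 126 CPM in NC libraries, and its interaction was not called (0.13, edgeR adjusted p = 0.152). LDHA was at 484, 475 and 479 CPM in DHN libraries and 1032, 1094 and 1028 CPM in NC libraries, with an interaction of 0.50. BNIP3 was at 129, 140 and 136 CPM in DHN libraries and 327, 332 and 330 CPM in NC libraries, with an interaction of 0.41. In these 2 genes every DHN-A level lay below every DHN level, with the larger relative gap in BNIP3. The levels without 1,2-DHN were also lower in NC-A than in NC libraries. Neither difference was tested here. Of the 21 members called lower with asparagine, 15 had a smaller change than without, 4 had no call of the interaction (HK2, NDRG1, SLC2A3 and GAPDH), KDM3A had a larger one and VEGFA went the other way. KDM3A, a histone demethylase induced by HIF, had 66.3, 67.0 and 67.2 CPM in DHN-A libraries and 80.8, 85.9 and 86.3 CPM in NC-A libraries, a log2 change of -0.34 ± 0.05, against -0.13 in DHN against NC. VEGFA, the angiogenic growth factor, had 163, 169 and 165 CPM in DHN-A libraries and 183, 181 and 183 CPM in NC-A libraries, a log2 change of -0.14 ± 0.04 (edgeR adjusted p = 0.0466). In DHN libraries it had 196, 196 and 205 CPM and in NC libraries 144, 146 and 146 CPM, so the directions were opposite (interaction -0.59). The call of VEGFA with asparagine was marginal and was lost when any of the 6 libraries was left out. VEGFA, NDRG1, SLC2A3 and GAPDH were named after their values were seen.

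**Figure D3:**
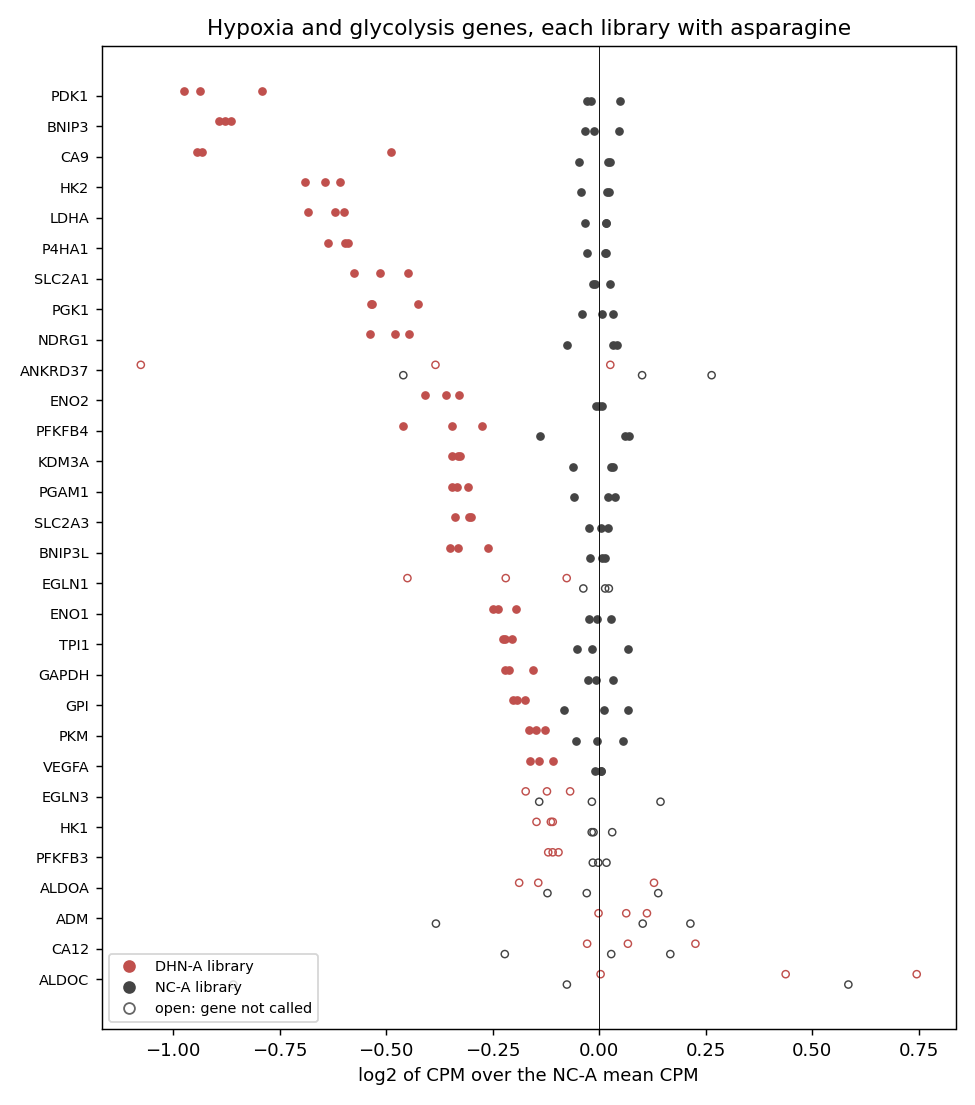
Level of each of the 30 hypoxia and glycolysis genes in every DHN-A and NC-A library, as log2 of CPM over the mean CPM of the NC-A libraries (horizontal axis), with filled points for genes called in DHN-A against NC-A and open points for the others. In PDK1, BNIP3, HK2 and LDHA the 3 DHN-A points lie left of the 3 NC-A points, and in ALDOC, CA12 and ADM the groups overlap.

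Other genes among the largest falls lay outside that list. PPFIA4, a liprin scaffold protein, had 3.99, 5.47 and 4.84 CPM in DHN-A libraries and 9.83, 11.1 and 10.4 CPM in NC-A libraries, a log2 change of -1.13 ± 0.13 (edgeR adjusted p = 2.90e-08). APLN, which encodes the peptide hormone apelin, fell by 0.76 on the log2 scale, and AK4, a mitochondrial adenylate kinase, fell by 0.69. DDIT4, an inhibitor of mTORC1 signalling, had 10.2, 12.04 and 12.1 CPM in DHN-A libraries and 17.1, 18.4 and 16.3 CPM in NC-A libraries, a log2 change of -0.59 ± 0.10, with 41.2% of its exon bases opposite an antisense gene. TFRC, the transferrin receptor that brings iron into the cell, had 186, 183 and 190 CPM in DHN-A libraries and 288, 277 and 287 CPM in NC-A libraries, a log2 change of -0.61 ± 0.04. These 5 kept their call in every alternative that gave an adjusted p.

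Chaperone genes were among the largest rises. Of 26 heat shock chaperones and cochaperones tested, 6 were called higher and 1 lower with asparagine (median log2 change 0.07), and 22 were called higher without it (median 0.85). Without NC-A 1, 4 were called higher and 1 lower. The share of all tested genes called higher was 0.805% with asparagine and 19.7% without. HSPA6, an HSP70 that is nearly silent without stress, had 12.5, 11.6 and 10.04 CPM in DHN-A libraries and 3.18, 3.27 and 3.56 CPM in NC-A libraries. Its log2 change was 1.77 ± 0.12 (edgeR adjusted p = 2.08e-16). In DHN libraries it stood at 505, 493 and 511 CPM and in NC libraries at 3.73, 4.49 and 4.60 CPM, so the groups did not overlap in either contrast, and the interaction was -5.09. HSPA1A, the main inducible HSP70, had 5.50, 6.61 and 6.86 CPM in DHN-A libraries and 1.33, 1.60 and 1.49 CPM in NC-A libraries, a log2 change of 2.09 ± 0.20. CRYAB, which encodes alpha-B crystallin, a lens protein and small chaperone, had 3.67, 3.98 and 3.80 CPM in DHN-A libraries and 1.18, 1.38 and 0.747 CPM in NC-A libraries, a log2 change of 1.81 ± 0.26. The NC-A libraries lay below every DHN-A library in both genes. Each of the 3 kept its call in every alternative that gave an adjusted p, and each changed more without added asparagine, with log2 changes of 5.06 for HSPA1A and 3.87 for CRYAB and the interaction called for all 3.

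HSPB1, a small heat shock protein, had 362, 372 and 349 CPM in DHN-A libraries and 308, 307 and 300 CPM in NC-A libraries, a log2 change of 0.24 ± 0.04. BAG3, a cochaperone of HSP70, rose by 0.16, and its call was lost without DHN-A 2, without NC-A 1 and after GC removal. HSPA1B rose by 0.37, with its call lost when any of DHN-A 1, DHN-A 2 or the 3 NC-A libraries was left out. HSPA1A and HSPA1B are near-identical copies, as are HSPA6 and HSPA7, and their split of reads is uncertain. HSPD1, the mitochondrial chaperonin, was lower with asparagine, at 369, 354 and 368 CPM in DHN-A libraries and 430, 400 and 414 CPM in NC-A libraries, and higher without it (log2 changes -0.19 and 0.68). DNAJB1, a cochaperone that rose by 1.30 without added asparagine, had a log2 change of 0.07 with it (edgeR adjusted p = 0.491). BAG3, HSPA1B and HSPD1 were named after their values were seen.

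Among immediate early genes and AP-1 subunits, 3 of 27 were called higher with asparagine (5 without DHN-A 3, 2 without DHN-A 1, NC-A 1 or NC-A 2, 1 without NC-A 3 and 6 with no filter on low counts). Without added asparagine, 22 were called higher and 3 lower. Among all tested genes, 0.805% were called higher with asparagine and 19.7% without. ARC had 4.53, 4.97 and 5.83 CPM in DHN-A libraries and 1.55, 0.799 and 1.09 CPM in NC-A libraries, a log2 change of 2.15 ± 0.22, and it kept its call in every alternative that gave an adjusted p. EGR1, a zinc finger transcription factor, rose by 0.28, and its call was lost without NC-A 3. FOS, which rose by 3.02 without added asparagine, had a log2 change of 0.32 (edgeR adjusted p = 0.419).

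Detoxification genes responded in part. Of 34 NRF2 targets, 5 were called higher with asparagine, and 30 were called higher without it. Without NC-A 1, 4 were called higher with asparagine. For all tested genes, the share called higher was 0.805% with asparagine and 19.7% without. NQO1, the quinone reductase, had 79.6, 79.8 and 85.4 CPM in DHN-A libraries and 62.1, 62.6 and 59.6 CPM in NC-A libraries. Its log2 change was 0.41 ± 0.05 (edgeR adjusted p = 1.49e-07), against 1.05 in DHN against NC. FTH1, the ferritin heavy chain that stores iron, had 308, 331 and 325 CPM in DHN-A libraries and 249, 252 and 253 CPM in NC-A libraries, a log2 change of 0.35 ± 0.04. For FTH1, 62.4% of the exon bases lie opposite exons of BEST1. FTL, the ferritin light chain, rose by 0.17, and its call was lost without NC-A 3. SQSTM1, an autophagy receptor, rose by 0.17, and its call was lost without DHN-A 1, DHN-A 2 or NC-A 1. PIR, an iron-binding nuclear protein, rose by 0.72, and its interaction was not called (-0.33, edgeR adjusted p = 0.176). HMOX1, heme oxygenase, had 50.003, 46.9 and 47.2 CPM in DHN-A libraries and 43.9, 47.0 and 41.2 CPM in NC-A libraries. These groups overlapped (log2 change 0.13, edgeR adjusted p = 0.338), whereas without added asparagine it rose by 2.08. GCLM, a subunit of the enzyme that starts glutathione synthesis, had a log2 change of 0.12 with asparagine (edgeR adjusted p = 0.213) and rose by 0.48 without it.

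Of 8 genes of the aryl hydrocarbon receptor axis, which include the receptor AHR and its partner ARNT beside target genes, 4 were called higher with asparagine (2 without DHN-A 2, 3 without NC-A 1) and 5 without it. The shares called higher over all tested genes were 0.805% with asparagine and 19.7% without. AHRR, the receptor's repressor and its target, had 80.2, 79.3 and 82.2 CPM in DHN-A libraries and 64.7, 68.2 and 66.5 CPM in NC-A libraries, a log2 change of 0.28 ± 0.05 (edgeR adjusted p = 0.000324). Its change without added asparagine was 0.08 and not called, and the interaction was 0.19. CYP1B1, a monooxygenase that oxidises aromatic compounds, rose by 0.47, and TIPARP, which modifies the receptor, rose by 0.21. The call of CYP1B1 was lost without DHN-A 2, NC-A 2 or NC-A 3, and that of TIPARP without DHN-A 2 or NC-A 1. The other member called was NQO1, which is also counted among the NRF2 targets above. CYP4F11, a fatty acid monooxygenase, rose by 0.85 from low levels, at 2.66, 3.78 and 3.72 CPM in DHN-A libraries and 2.07, 2.25 and 1.38 CPM in NC-A libraries, and its call was lost in 6 of 20 alternatives, among them those without DHN-A 2, DHN-A 3, NC-A 1 or NC-A 3. ALDH1A3, which makes retinoic acid, had 195, 198 and 200 CPM in DHN-A libraries and 132, 143 and 136 CPM in NC-A libraries. Its log2 change was 0.53 ± 0.04 (edgeR adjusted p = 1.17e-12), larger than the 0.13 seen in DHN against NC (interaction 0.40).

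**Figure D4:**
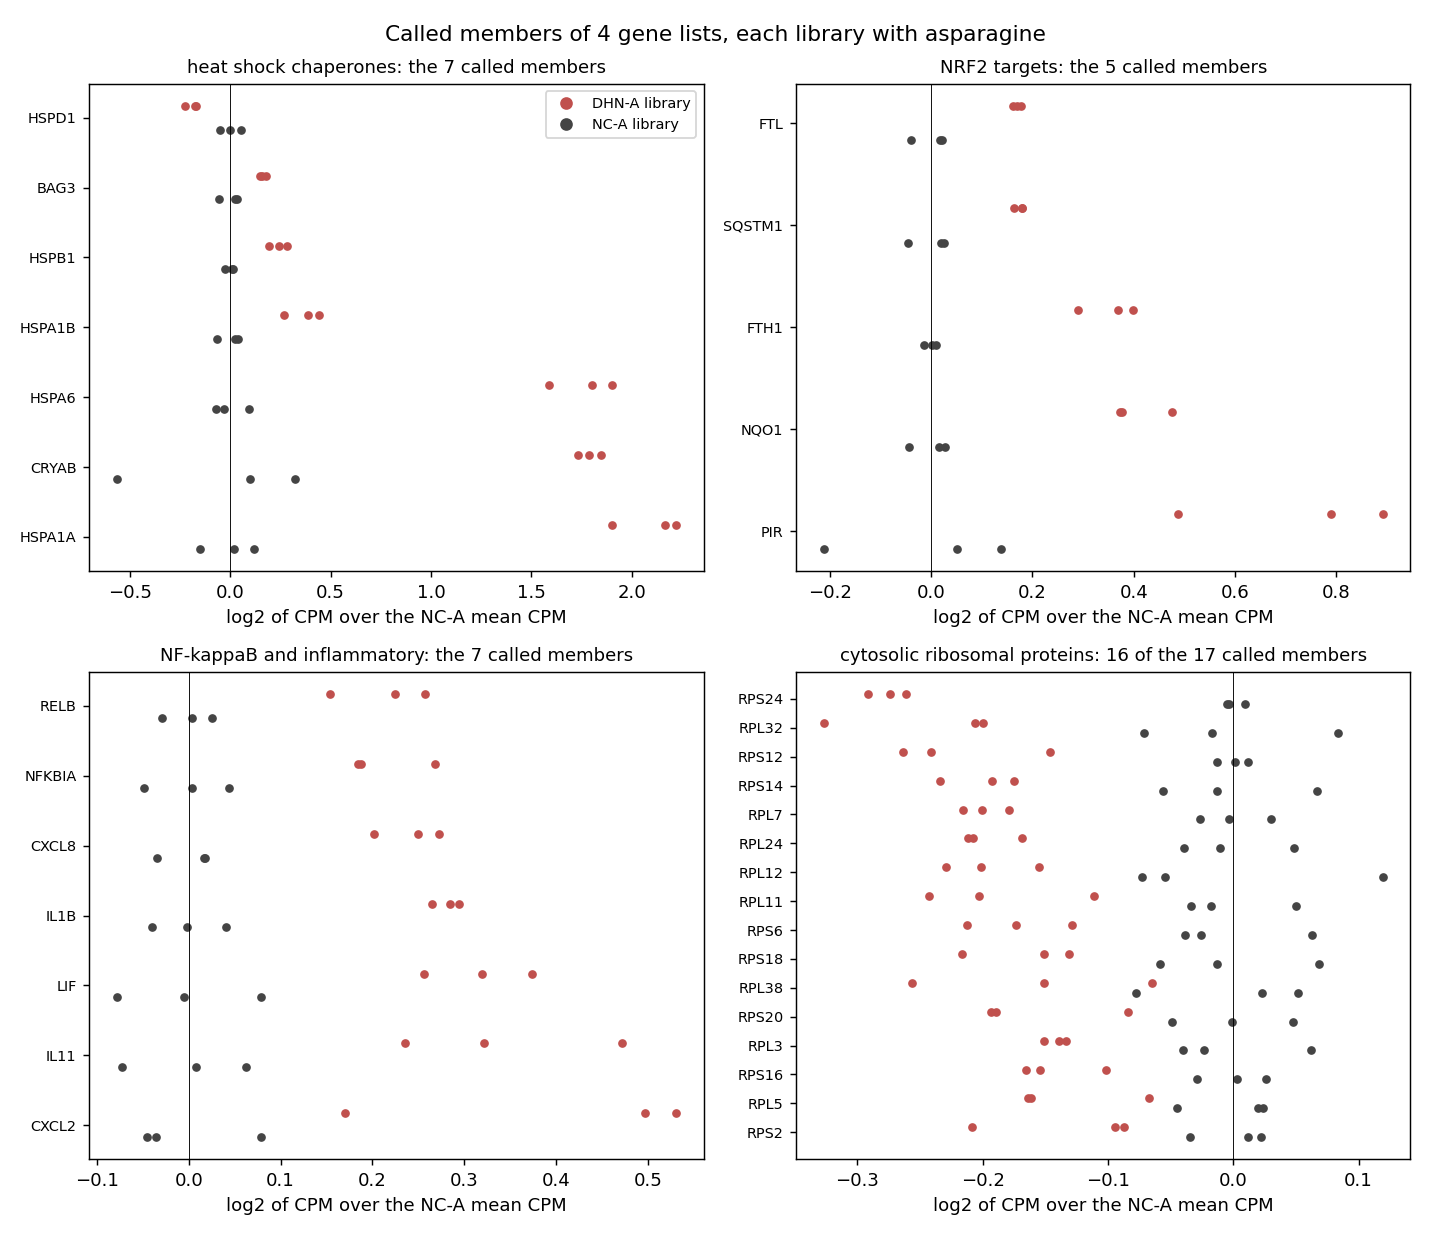
Level of called members of 4 gene lists (of the ribosomal protein genes, 16 of 17) in every DHN-A and NC-A library, as log2 of CPM over the mean CPM of the NC-A libraries (horizontal axis). HSPA1A, CRYAB and HSPA6 lie far to the right, the NRF2 targets and inflammatory genes lie to the right by less, and the ribosomal protein genes lie to the left.

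Of 23 NF-kappaB and inflammatory genes tested, 7 were called higher with asparagine present, with a median log2 change of 0.21 over the list. The count was 4 without DHN-A 1, 4 without DHN-A 2 and 6 without NC-A 1. Without added asparagine, 7 were called higher and 8 lower. Among all tested genes, 0.805% were called higher with asparagine, and 19.7% higher and 19% lower without. IL1B, an inflammatory cytokine, had 227, 229 and 224 CPM in DHN-A libraries and 181, 192 and 186 CPM in NC-A libraries. Its log2 change was 0.28 ± 0.04 (edgeR adjusted p = 3.01e-06), and 0.17 without added asparagine. CXCL8, a neutrophil chemoattractant, had 316, 332 and 327 CPM in DHN-A libraries and 268, 278 and 278 CPM in NC-A libraries, a log2 change of 0.24 ± 0.04. In both genes the groups stayed apart, and the interaction was not called. IL11, a cytokine of the IL6 family, rose by 0.35 with asparagine and by 0.29 without. NFKBIA, which encodes the inhibitor IkappaB alpha, had 208, 220 and 208 CPM in DHN-A libraries and 177, 188 and 183 CPM in NC-A libraries, a log2 change of 0.21 ± 0.04. Without added asparagine it fell by 0.36. CXCL2, another neutrophil chemoattractant, rose by 0.41 with asparagine and was not called without (log2 change -0.05). Its call was lost without DHN-A 1 or DHN-A 2.

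Of 45 cytosolic ribosomal protein genes tested, 17 were called lower in DHN-A against NC-A, by small amounts. The log2 changes of all 45 were below 0 (median -0.13), and their summed level was 21369, 20893 and 20382 CPM in DHN-A libraries and 22373, 22987 and 22663 CPM in NC-A libraries. The count called lower was 7 without DHN-A 2, 8 without NC-A 2, 11 without NC-A 3 and 14 without NC-A 1. Without added asparagine, 15 were called higher and 3 lower. For all tested genes, 1.29% were called lower with asparagine, and 19.7% higher and 19% lower without. RPS24 had 315, 308 and 312 CPM in DHN-A libraries and 376, 376 and 380 CPM in NC-A libraries. Its log2 change was -0.28 ± 0.04 (edgeR adjusted p = 1.01e-06), against -0.02 and no call in DHN against NC. RPS12 had 294, 290 and 314 CPM in DHN-A libraries and 348, 345 and 351 CPM in NC-A libraries, a log2 change of -0.22 ± 0.04, and it rose by 0.19 without added asparagine. RPS24 and RPS12 kept their calls in every alternative. The interaction was called for 15 of the 17, of which 10 were called with asparagine and not without and 5 were opposite. RPL3 fell in both contrasts with no call of the interaction. The call of RPL3, named after its values were seen, was lost without DHN-A 1, DHN-A 2, NC-A 1 or NC-A 2. These genes have processed pseudogene copies that can share reads, so their levels are uncertain.

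Of 37 ATF4 targets and other amino acid response genes, 5 were called lower with asparagine (4 without NC-A 1). Without added asparagine, 26 were called higher and 5 lower. The shares over all tested genes were 1.29% lower with asparagine, and 19.7% higher and 19% lower without. Of the 5 lower with asparagine, 2 were called in the opposite direction without it. Another 2 had a smaller change in the same direction, and 1 changed in the same direction with no call of the interaction. The largest fall in the list was that of DDIT4 (log2 change -0.59). PSAT1, a serine synthesis enzyme, had 84.7, 80.7 and 89.7 CPM in DHN-A libraries and 102, 105 and 97.2 CPM in NC-A libraries, a log2 change of -0.25 ± 0.05, and it rose by 0.36 without added asparagine. CEBPG, a transcription factor that partners ATF4, fell by 0.19 with asparagine and rose by 0.53 without. ATF4 itself had 375, 370 and 362 CPM in DHN-A libraries and 400, 407 and 398 CPM in NC-A libraries, a log2 change of -0.12 that was not called (edgeR adjusted p = 0.0651), whereas it rose by 0.66 without. ASNS had 3.95, 4.85 and 4.05 CPM in DHN-A libraries and 4.95, 5.52 and 5.17 CPM in NC-A libraries. It was not called with asparagine (log2 change -0.28, edgeR adjusted p = 0.535) and rose by 1.12 without, and 44.6% of its exon bases overlap another gene on the same strand. TRIB3, CHAC1 and DDIT3, stress genes downstream of ATF4, had log2 changes of 0.02, 0.03 and 0.09 with asparagine, none called. Of 20 aminoacyl-tRNA synthetases, 5 were called lower, led by GARS1, for glycine, at 272, 261 and 266 CPM in DHN-A libraries and 303, 300 and 308 CPM in NC-A libraries (log2 change -0.19 ± 0.04). GARS1 rose by 0.68 without added asparagine. NARS1, the enzyme that charges tRNA with asparagine, fell by 0.18 with asparagine and rose by 0.17 without, and its call with asparagine was lost without DHN-A 2 or NC-A 3. The count of 5 synthetases was 3 without NC-A 1, 3 without NC-A 2, 2 without DHN-A 2 and 1 without NC-A 3. Of the 5, 3 were called in the opposite direction without added asparagine. Another 1 had a smaller change in the same direction, and 1 changed in the same direction with no call of the interaction. Without added asparagine, 10 of the 20 were called higher and 5 lower.

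Of 29 matrix and mesenchymal genes, 6 were called lower and 1 higher with asparagine (5 and 1 without NC-A 1), and 22 lower and 2 higher without. Among all tested genes, 1.29% were called lower with asparagine and 19% without. The interaction was called for all 7, with a smaller change for the 6 that were lower. LOX, which crosslinks collagen, had 31.3, 28.9 and 30.9 CPM in DHN-A libraries and 43.6, 40.0 and 42.2 CPM in NC-A libraries, a log2 change of -0.47 ± 0.06, against -1.33 in DHN against NC. VIM, which encodes vimentin, fell by 0.18, and CDH2, which encodes N-cadherin, by 0.19. THBS1, an adhesive glycoprotein, was the member called higher, at 497, 485 and 531 CPM in DHN-A libraries and 456, 450 and 444 CPM in NC-A libraries (log2 change 0.16). Its call was lost without DHN-A 3 or NC-A 3, and it was named after its values were seen. PLAT, the tissue plasminogen activator, fell by 0.32, and PLAU, urokinase, rose by 0.14 with asparagine and fell by 0.48 without. The call of PLAU with asparagine was lost without any 1 of DHN-A 1, DHN-A 2, DHN-A 3, NC-A 1 and NC-A 3. TXNIP, an inhibitor of thioredoxin and glucose uptake, fell by 0.44. SLC16A6, a monocarboxylate transporter family member, rose by 0.39 with asparagine and was not called without (interaction 0.29).

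**Figure D5:**
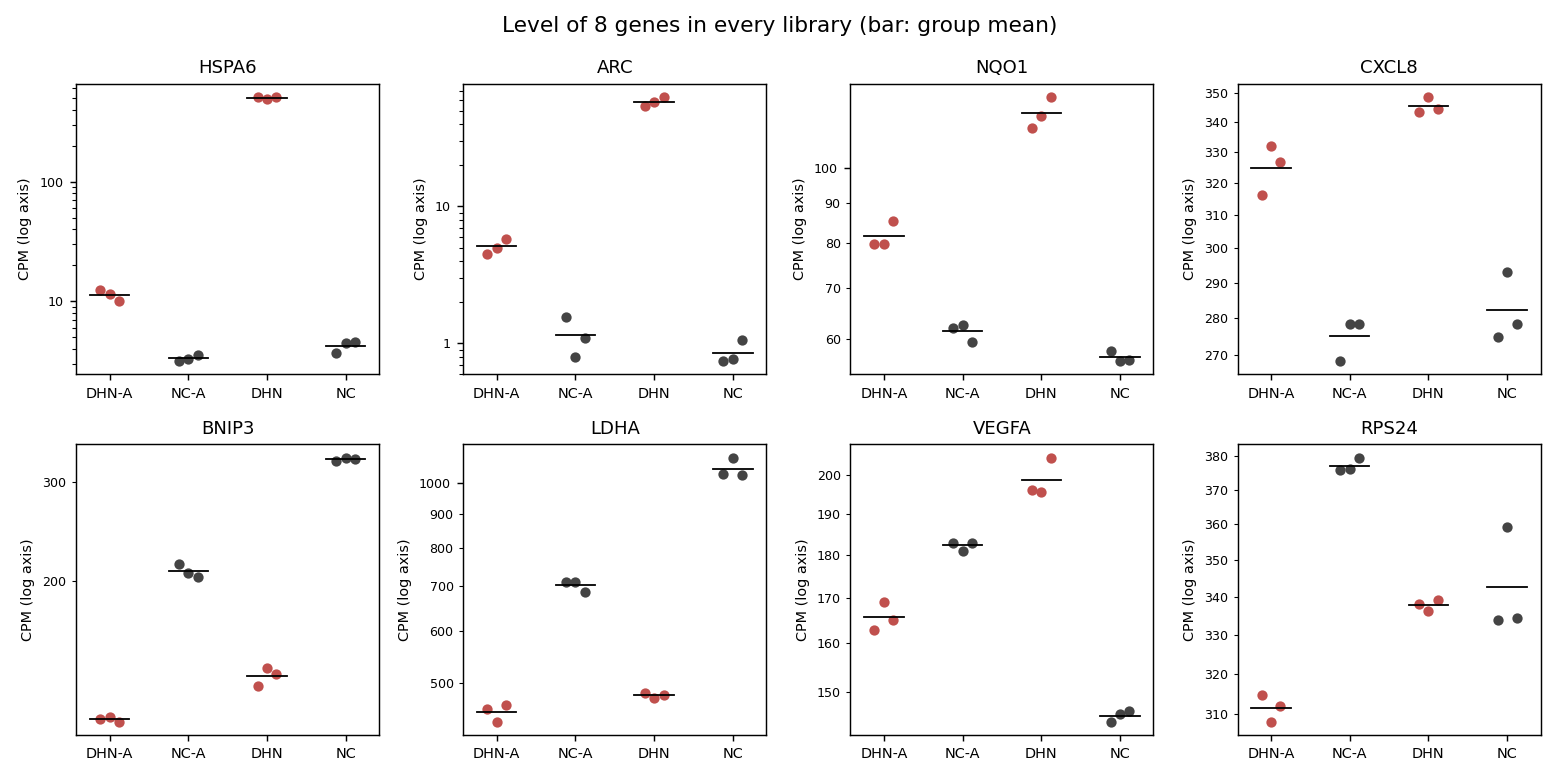
Level in CPM (log axis) of 8 genes in each of the 12 libraries, grouped as DHN-A, NC-A, DHN and NC from left to right, with a bar at each group's mean. HSPA6, ARC and NQO1 are lower in DHN-A than in DHN, BNIP3 and LDHA are lower in NC-A than in NC, VEGFA changes in opposite directions, and RPS24 is lower in DHN-A than in NC-A alone.

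Several gene groups that moved without added asparagine had few or no calls with it. Over all tested genes, 2.1% were called with asparagine and 38.7% without. A short list with 0 or 1 call with asparagine is therefore near the overall share. Of 31 proteasome genes, 0 were called with asparagine by the edgeR test and 22 were called higher without. Of these 31, 3 had an unadjusted p under 0.05 with asparagine, DESeq2 called 1 and limma-voom 0. SEM1, a proteasome lid subunit outside that list, was called lower (log2 change -0.27), a call lost in 7 of 21 alternatives, those without DHN-A 2, DHN-A 3, NC-A 1 or NC-A 2 among them. Of 30 interferon response genes, 1 was called with asparagine, IFIT1, which fell by 0.16 and lost its call without DHN-A 1 or NC-A 3, and 26 were called lower without. DESeq2 called 5 lower with asparagine, limma-voom 3 and the fit to only the groups compared 3. MX1, an antiviral GTPase, had 142, 141 and 144 CPM in DHN-A libraries and 147, 142 and 150 CPM in NC-A libraries (log2 change -0.04, edgeR adjusted p = 0.778), and it fell by 1.26 without added asparagine. Of 25 mitosis genes, 3 were called lower with asparagine (CENPF, CENPE and TOP2A, which fell by 0.19, 0.21 and 0.13) and 23 without. The count of 3 was 1 without DHN-A 1, DHN-A 2 or NC-A 3 and 2 without NC-A 1 or NC-A 2, and the call of TOP2A was lost without any of these 5 libraries. PLK1, a mitotic kinase, had a log2 change of 0.04 and was not called. Of 26 p53 targets, 1 was called higher, CDKN1A, the cell cycle inhibitor, which rose by 0.19 and lost its call without DHN-A 2. Without added asparagine, 18 of the 26 were called higher and 2 lower. Of 25 endoplasmic reticulum chaperone and unfolded protein response genes, 3 were called lower with asparagine. HSPA5 among them fell by 0.16 and lost its call without DHN-A 2. The count of 3 was 0 without DHN-A 2 and 1 without NC-A 3, and DESeq2 called 5. Without added asparagine, 17 of the 25 were called lower and 5 higher. The edgeR test called 0 genes with asparagine in 10 further lists, not all of which moved without it. Without added asparagine, 9 of 14 MAP kinase feedback genes were called higher and 3 lower. Among 17 replication-dependent histone genes, 2 were called higher and 2 lower. With asparagine, at an unadjusted p under 0.05, there were 4 of 13 mitochondrially encoded genes (DESeq2 called 2, limma-voom 0) and 5 of 33 DNA replication genes (2 and 1). There were 2 of 14 MAP kinase feedback genes and 1 of 16 BCL2 family genes, with 0 calls by either of the other tools. There was 1 of 6 metallothionein and zinc genes (DESeq2 called 1, limma-voom 0) and 1 of 17 replication-dependent histone genes (0 and 0). Of the other 4 lists, which hold markers of other cell types, 2 of 8 fibroblast and 1 of 2 immune markers had such a p, as did 0 of 3 keratinocyte and 0 of 5 pigment cell markers, with 0 calls by the other tools.

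Some of the largest changes without added asparagine were in genes whose response was not called with it. FOSB, a partner of JUN, was at 45.8, 39.4 and 44.3 CPM in DHN libraries and 2.86, 2.80 and 2.999 CPM in NC libraries, and at 2.52, 2.41 and 1.98 CPM in DHN-A libraries and 2.14, 1.38 and 1.55 CPM in NC-A libraries. The DHN-A and NC-A values of FOSB overlapped and no call was made with asparagine (edgeR adjusted p = 0.260). RASD1, a small GTPase, rose by 4.21 without added asparagine, and with it had a log2 change of 0.46 (edgeR adjusted p = 0.328).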

How the data were processed

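Stranded RNA-seq libraries of 12 samples were prepared from 1 cell line, and raw counts per gene were deposited by the authors. Reads were aligned with Bowtie to hg38, per the submitters' processing notes. The Bowtie version, counting tool, strand setting and annotation were not given in the sources used here. Of the 60641 gene symbols, 17889 passed filterByExpr. They were scaled by TMM and fitted with 1 mean per group over all 12 libraries by edgeR 4.0.16 (glmQLFit, robust, glmQLFTest; R 4.3.3), with Benjamini-Hochberg adjustment and a threshold of 0.05. Standard errors came from the fitted model. CPM values used TMM library sizes, and groups of libraries were called overlapping from them. Members were all genes of the contrast, and the 33 gene lists were chosen with earlier results of these data known.

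Named genes were the 14 largest rises and 14 largest falls with a mean count of at least 50 and no overlap between groups, up to 4 called members of each list, 6 genes of each class, and a fixed set of stress and lens genes. Genes named outside this are said to be, and some genes that met the rule are not reported here. Exon overlaps and GC content came from an annotation of GRCh38, and 97.9% of tested genes had a GC value. The hypoxia core was added to the motifs after the data were examined, as were the alternatives that remove GC.

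Libraries with the same group label were not the same library deposited again: the mean chi-square per gene was 1.75 to 4.25 between them. Deviations of same-numbered DHN-A and NC-A libraries had correlations of -0.03, -0.18 and 0.23, which does not settle whether they were paired. The main fit has no block. The fit was checked on data simulated from these libraries with 200 changed genes in DHN-A against NC-A. It recovered 49.2% of 1.25-fold, 69.8% of 1.5-fold and 77.8% of 2-fold changes. Of its 136 calls, 8.09% were unchanged genes, and the unchanged DHN against NC comparison gave 0 calls. The simulated libraries held no outlying library such as NC-A 1, no GC trend and no response in DHN against NC. The check therefore does not cover these conditions. Alternatives used DESeq2 1.42.0, limma-voom (limma 3.58.1), other scaling and filters, thinned counts, a replicate block and each library left out.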

Additional observations from a re-analysis of the deposited data

Results flagged for a closer look

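The interaction, the log2 change in DHN-A against NC-A less that in DHN against NC, was called for 4592 genes at an adjusted p under 0.05 (edgeR). Among genes called with asparagine and named by the rule, 28 had an interaction called and did not have a smaller change of the same sign than without added asparagine, and their interaction values follow on the log2 scale.

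The change was larger with asparagine for ALDH1A3 (0.40) and KDM3A (-0.21). These were the only 2 genes so classed among the 375, and both changed in the same direction in the 2 contrasts.

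Several genes were called with asparagine and not without. Higher with asparagine were AHRR (0.19), CXCL2 (0.46), PLA2G4A (0.53), SLC16A6 (0.29), SLC6A6 (0.29) and TGFB1 (0.18). PLA2G4A encodes a phospholipase that releases arachidonic acid, SLC6A6 a taurine transporter and TGFB1 a growth factor of matrix production. The call of TGFB1 with asparagine (edgeR adjusted p = 0.0466) was lost in 13 of 21 alternatives, among them limma-voom, the replicate block, thinning, GC removal and those without any library of DHN-A and NC-A but DHN-A 3. That of PLA2G4A was lost when thinned and without NC-A 1 or NC-A 3, that of CXCL2 without DHN-A 1 or DHN-A 2, and that of SLC6A6 when thinned. Lower with asparagine were FAM216A (-0.34), MORF4L1P1 (-0.40), RPL13AP25 (-1.03), RPL7 (-0.29) and RPS24 (-0.26). MORF4L1P1 and RPL13AP25 are pseudogenes that can share reads with their parent genes, so their counts are uncertain. The call of FAM216A was lost without DHN-A 2, DHN-A 3, NC-A 2 or NC-A 3, that of MORF4L1P1 when thinned and without DHN-A 2, NC-A 2 or NC-A 3, and that of RPL13AP25 without DHN-A 2 or NC-A 3.

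Other genes changed in opposite directions in the 2 contrasts. Higher with asparagine and lower without were NFKBIA (0.57), PCBP3 (0.61), PLAU (0.61) and PLEKHG4B (0.54). Lower with asparagine and higher without were the amino acid and tRNA genes CEBPG (-0.72), GARS1 (-0.87), NARS1 (-0.35) and PSAT1 (-0.61). The ribosomal protein genes RPL32 (-0.38), RPL35A (-0.47) and RPS12 (-0.41) had the same signs, as did ADAMTS1 (-0.75), a matrix protease, SEM1 (-0.45), a proteasome lid subunit, SNHG5 (-0.76), a host gene of small nucleolar RNAs, and ZNF138 (-0.73). Several of these calls with asparagine were lost in alternatives: ZNF138 in 8 of 20 (without DHN-A 1, DHN-A 3, NC-A 1 or NC-A 3 among them), PLAU in 8 of 21 (all of the 6 libraries but NC-A 2) and SEM1 in 7 of 21 (DHN-A 2, DHN-A 3, NC-A 1 or NC-A 2). ADAMTS1 lost its call in 6 of 21 (DHN-A 1, DHN-A 2, NC-A 1 or NC-A 3), PCBP3 in 6 of 20 (DHN-A 1, DHN-A 3, NC-A 2 or NC-A 3) and SNHG5 in 5 of 21 (each of the 6 but NC-A 1). NARS1 lost its call in 3 of 21 (DHN-A 2 or NC-A 3, and with no filter) and CEBPG in 1 of 21, with no filter.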

How the results depend on the processing

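Against 375 genes called, alternatives over all libraries called 373 (other scaling factors), 472 (DESeq2), 362 (limma-voom), 398 (no filter), 463 (only the groups compared), 337 (thinned), 374 (GC removed) and 368 (GC removed with the replicate block). The replicate block called 334 (125 higher, 209 lower). Same-numbered libraries had correlations of -0.03, -0.18 and 0.23. With 3 libraries per group, these values cannot tell whether the numbers pair the samples. Higher calls were 271 with no filter, 90 with GC removed and 84 with GC removed and the block, and lower calls were 127 with no filter. Genes larger with asparagine numbered 0 with no filter and 1 when thinned. DESeq2, which gave no adjusted p for 11098 genes, put 2586 genes in the class no longer called with asparagine and 73 in the opposite class. With 1 library left out, the total was 143 to 426, higher calls 51 to 161 and lower calls 92 to 271. Genes called in the same direction with no call of the interaction numbered 35 to 102. The smaller class held 62 to 137 genes, the larger 1 to 3, called with asparagine only 20 to 66 and opposite 16 to 65. The cause was not tested. The sign changed for genes that were not called: TRIB3 (-0.0302 thinned, -0.0493 with GC removed, -0.0507 with GC removed and the block, -0.0327 to 0.0683 with 1 library left out), CHAC1 (-0.0492, -0.0497 with the block, -0.0528 to 0.0825), PLK1 (-0.00115 with GC removed, -0.00117 with the block) and NEFM (-0.26 to 0.88). Of 95 named genes called, 49 kept their call in every alternative that gave an adjusted p. Hypoxia, heat shock and NRF2 counts stayed within 1.5 times under each alternative. Depth was lower in NC-A than in DHN-A libraries and limits calls of genes with few counts.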
